A study of Mus musculus with 2 samples.

Results

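The genes described here encode the 5 subunits of the transcription factor NF-kB and 5 proteins of the IkB family, which bind those subunits. They were taken by gene symbol (Rela, Rel, Relb, Nfkb1, Nfkb2, Nfkbia, Nfkbib, Nfkbie, Nfkbiz and Bcl3), and all 10 were found once each among the 54532 genes of the deposited table. Messenger RNA had been sequenced from CMT167R cells, a form of the mouse lung carcinoma line CMT167 that the labels describe as resistant to anti-PD1, an antibody to PD-1, which restrains T cells. An untreated culture gave 1 library, and the other came from a culture exposed for 24 h to 50 nM of an agent whose identity the labels give only as PKCi. The libraries held 16090186 (untreated) and 16071153 (PKCi) gene counts. Levels are counts per 1000000 of the library's counts (CPM), and pairs of values are given untreated first and PKCi second; 1 CPM stood for 16.1 counts in each library. With 1 library per group no difference has a replicate check and no test across conditions could be made. The 95% intervals of ratios are exact binomial (Clopper-Pearson) intervals that compare these libraries and cover counting error only, not the spread between cultures. Reads that carry no molecular identifier may be copies of 1 molecule, and the intervals would then be too narrow even for counting error.

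NF-kB subunits act as dimers that share a Rel homology domain for DNA binding. RelA, c-Rel and RelB carry their own activation domains, whereas Nfkb1 and Nfkb2 encode the precursors p105 and p100, which are processed to the DNA-binding subunits p50 and p52. The classical IkB proteins hold dimers in the cytoplasm until the IKK kinase complex marks them for degradation, and the atypical IkB proteins Bcl-3 and IkB-zeta act in the nucleus on dimers that contain p50 or p52. Several members are themselves known targets of the pathway, which gives it feedback, and protein kinase C is a known input through the CARD, BCL10 and MALT1 complex.

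The PKCi library held higher levels of 6 of the 10 genes: Nfkbia, Nfkb2, Bcl3, Nfkbie, Relb and Rela were each at least 2-fold higher, from 2.07-fold for Rela to 3.11-fold for Nfkbia. None of the 10 was at least 2-fold lower. Nfkbiz and Nfkbib were 1.31-fold and 1.28-fold higher, Nfkb1 was at nearly equal levels, and Rel was 1.24-fold lower. Size was judged on the log2 ratio of CPM + 1, a pseudocount that shrinks the ratio of low genes, while folds are plain ratios of CPM. On that scale the median over the 10 members was 1.08, against −0.01 over the 12273 genes that reached 1 CPM in either library (quartiles −0.41 and 0.39). Among those 12273 genes, 6.53% were higher by this measure and 5.13% were lower by 2-fold or more. The members were chosen with earlier results of these data known, so this contrast is not independent of that choice. All 10 members passed the 1 CPM filter in both libraries, with the lowest at 22.3 CPM, so none entered through its level in 1 library.

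**Figure D1:**
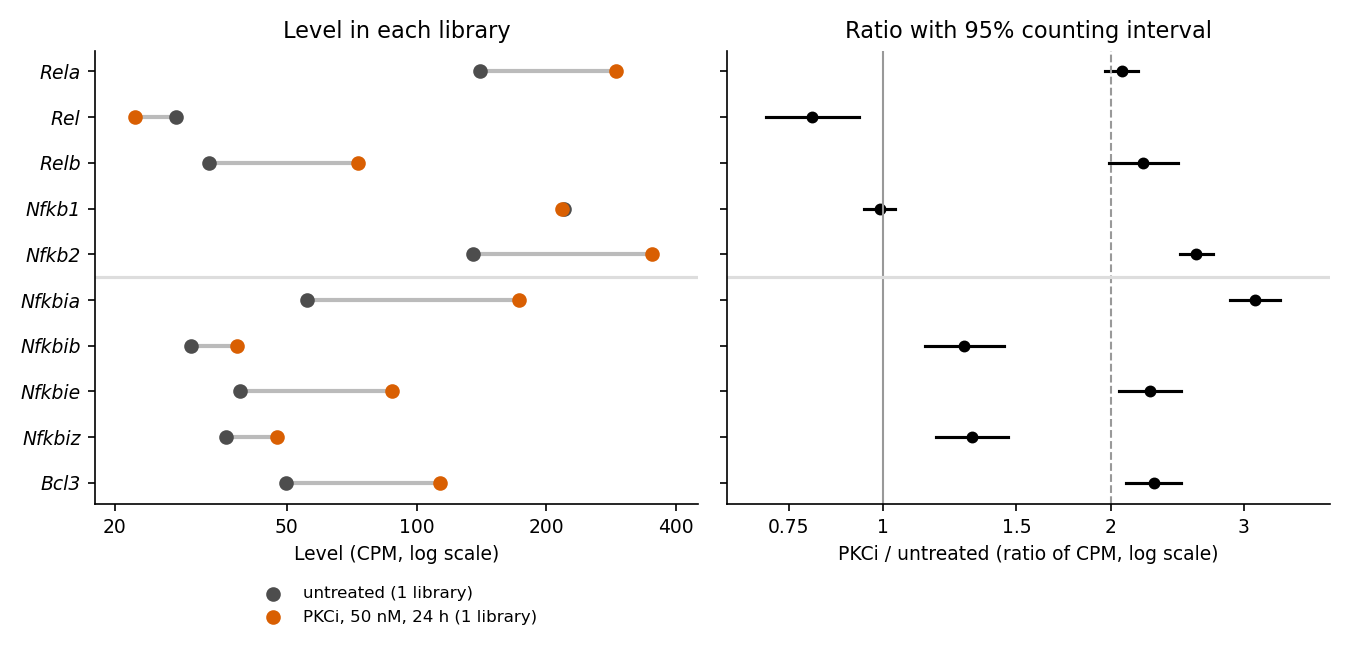
Left, the level of each gene in CPM (log axis) in the untreated library (grey) and the PKCi library (orange), 1 library each; right, the ratio of CPM with its 95% counting interval (log axis; solid line at 1, dashed line at 2). The points for Nfkb1 lie almost on each other, Rel lies to the left of 1, and 6 genes lie beyond 2.

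**Figure D2:**
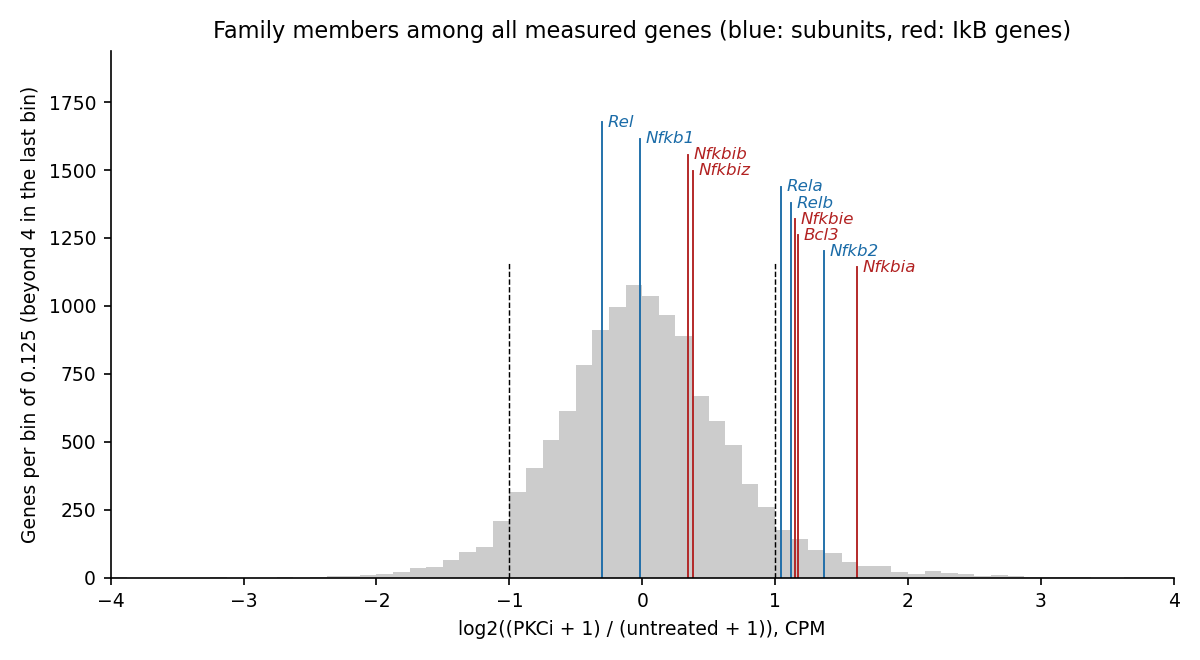
Number of genes per bin of log2 ratio for the 12273 measured genes (grey), with each NF-kB subunit (blue) and IkB gene (red) as a line at its own log2 ratio and dashed lines at 2-fold lower and higher. Nfkbia lies farthest right of the 10, at 1.62, and Rel farthest left, at −0.30.

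The promoters were searched for the letters of the kB consensus, the 10-base element to which NF-kB dimers bind. RefSeq promoter windows (mouse build GRCm38.p6, 250 bases before to 50 after the start) were found for 7 members and not for Relb, Nfkb1 and Nfkbiz. The consensus was searched on both strands, and matches that overlap were joined into 1 stretch. It was present in at least 1 window of 5 of the 7 members, against 6.11% of the 8980 measured genes outside the family that had a window. Counted by window, 4.51% of all 32851 windows of this length held it. A looser pattern, GGGNNNNNCC, is in 50.8% of all windows and so says little by itself. The stretches that hold the consensus are shown with the match in capitals, 5′ to 3′ on the strand of the gene, as they place the element close to the start of 4 genes that were higher and of Rel, which was lower.
Nfkb2: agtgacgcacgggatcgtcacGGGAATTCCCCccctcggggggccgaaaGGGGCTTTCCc
Nfkbia: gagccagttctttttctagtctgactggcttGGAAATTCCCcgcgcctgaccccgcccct
Nfkbie: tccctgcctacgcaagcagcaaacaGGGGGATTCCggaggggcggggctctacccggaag
Bcl3: cggcggcagGGGAAGTCCCgctgcccgg
Rel: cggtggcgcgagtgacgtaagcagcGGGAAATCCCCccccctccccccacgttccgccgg

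The Nfkb2 stretch is chr19:46304677-46304736 on the plus strand and ends at the base before the start, with matches from −39 to −29 and from −11 to −2. Nfkb2 has 3 RefSeq starts in the table. A further match at chr19:46305705-46305714 lies in the windows of both later starts, and the second of the 3 windows also has a match from −236 to −227. The Nfkbia stretch is chr12:55492648-55492707 on the minus strand, with the match from −29 to −20, and the Nfkbie stretch is chr17:45555569-45555628 on the plus strand, with the match from −106 to −97. The Bcl3 match lies just past the start, from base 3 to base 12 of the transcript, within chr7:19822735-19822762 on the minus strand. The Rel stretch is chr11:23771027-23771086 on the minus strand, with the match from −92 to −82. No match was present in the windows of Rela, which was 2.07-fold higher, and Nfkbib, which was 1.28-fold higher. A match is a description of letters, and its absence says only that these letters are not in this window.

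**Figure D3:**
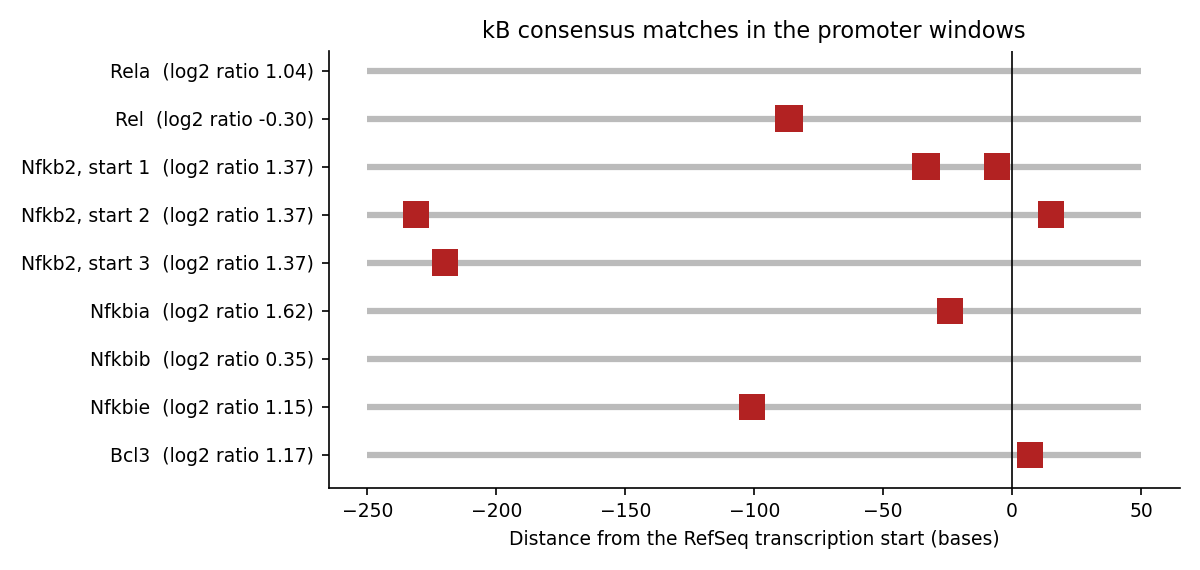
Position of kB consensus matches (red) within each promoter window (grey line, from 250 bases before to 50 bases after the RefSeq start, at 0), with the log2 ratio of the gene beside its name. Matches lie in windows of Rel, Nfkb2, Nfkbia, Nfkbie and Bcl3, and the windows of Rela and Nfkbib have none.

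Among the subunits, Nfkb2, which encodes the p100 precursor of p52, differed most. It had 2177 counts in the untreated library and 5645 in the PKCi library (135 and 351 CPM), 2.60-fold higher with a 95% interval of 2.47 to 2.73. Only 378 of the 12273 measured genes had a higher log2 ratio. Its gene (ENSMUSG00000025225) lies on the plus strand of chromosome 19, from 46304737 to 46312090 (GRCm38, as deposited). Rela, which encodes the activating subunit of the most common dimer, lies on the same chromosome from 5637483 to 5648130 (ENSMUSG00000024927, plus strand). Its levels were 140 and 290 CPM (2258 and 4666 counts), 2.07-fold higher with an interval of 1.97 to 2.18, which reaches below 2. Relb, the partner of p52 in the noncanonical pathway, had 532 and 1174 counts (33.1 and 73.1 CPM), 2.21-fold higher with an interval of 1.99 to 2.45. The gene (ENSMUSG00000002983) lies on the minus strand of chromosome 7, from 19606217 to 19629438. For Rela and Relb the counting interval thus holds values on both sides of 2-fold, while for Nfkb2 it lies wholly above.

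The other subunit genes were both under 2-fold in either direction. Nfkb1, which encodes the p105 precursor of p50, had 3531 counts untreated and 3486 with PKCi (219 and 217 CPM), a ratio of 0.988 with a 95% interval of 0.943 to 1.04. It was the member with the most CPM in the untreated library, and the only one of the 10 whose counting interval held 1. Its gene (ENSMUSG00000028163) lies on the minus strand of chromosome 3, from 135584655 to 135691547. Rel, which encodes c-Rel, a subunit best known from lymphocytes, was the lowest member in both libraries at 27.7 and 22.3 CPM. With 445 and 358 counts it was 1.24-fold lower, with an interval of 1.08 to 1.43. On chromosome 11 (minus strand) the gene, ENSMUSG00000020275, runs from 23736847 to 23770970. The precursor genes Nfkb1 and Nfkb2 therefore stood apart from each other: the ratio of Nfkb1 to Nfkb2 counts was 1.62 untreated and 0.618 with PKCi. This ratio of ratios does not depend on gene length or library scaling and came to 2.63 in favour of Nfkb2 (95% interval 2.45 to 2.81). Between Rela and Relb it was 0.936, with an interval of 0.834 to 1.05 that held 1, so a difference between these members was not detectable at this depth.

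Of the classical IkB genes, Nfkbia and Nfkbie were higher by more than 2-fold and Nfkbib was not. Nfkbia, which encodes IkB-alpha, the fast feedback inhibitor of the pathway, had 896 counts untreated and 2779 with PKCi. This was 55.7 and 173 CPM, 3.11-fold higher with a 95% interval of 2.88 to 3.35, and 232 of the 12273 measured genes had a higher log2 ratio. On chromosome 12 (minus strand) the gene, ENSMUSG00000021025, runs from 55489410 to 55492647. Nfkbie, which encodes IkB-epsilon, a slower feedback inhibitor, was at 38.9 and 87.7 CPM (626 and 1410 counts), 2.26-fold higher with an interval of 2.05 to 2.48. It lies on chromosome 17 from 45555703 to 45563169 on the plus strand (ENSMUSG00000023947). Nfkbib, which encodes IkB-beta, had 482 and 616 counts (30.0 and 38.3 CPM), 1.28-fold higher with an interval of 1.13 to 1.44. It lies on chromosome 7 from 28758251 to 28767512 on the minus strand (ENSMUSG00000030595). Relative to Nfkbib, Nfkbia counts stood at 1.86 untreated and 4.51 with PKCi, a ratio of ratios of 2.43 (95% interval 2.10 to 2.80).

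The nuclear IkB genes also differed from each other. Bcl3, which encodes a coregulator of p50 and p52 dimers, was at 49.7 and 113 CPM (800 and 1821 counts), 2.28-fold higher with a 95% interval of 2.10 to 2.48. It runs from 19808462 to 19822770 on chromosome 7 (minus strand, ENSMUSG00000053175). Nfkbiz, which encodes IkB-zeta, a coactivator of a subset of inflammatory genes, had 583 and 763 counts (36.2 and 47.5 CPM), 1.31-fold higher with an interval of 1.17 to 1.46. It runs from 55811375 to 55838899 on chromosome 16 (minus strand, ENSMUSG00000035356). The ratio of Nfkbiz to Bcl3 counts was 0.729 untreated and 0.419 with PKCi, a ratio of ratios of 1.74 in favour of Bcl3 (interval 1.51 to 2.0). Nfkbie and Bcl3 kept nearly the same proportion to each other, with count ratios of 0.783 and 0.774 and a ratio of ratios of 0.990 (interval 0.871 to 1.12). Nfkbid, the remaining atypical IkB gene that was looked up and no member here, was low, with 83 and 93 counts (5.16 and 5.79 CPM, 1.12-fold, interval 0.825 to 1.53).

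Levels of different genes were compared per length, as TPM (counts per base of gene length, scaled to a total of 1000000). With the gene lengths listed in the deposited table, the order in the untreated library was led by Rela at 168 TPM, Nfkb2 at 134 TPM and Nfkbia at 112 TPM. In the PKCi library Nfkbia, Rela and Nfkb2 were at 351, 349 and 349 TPM, and the ratios of neighbours in that order had counting intervals that held 1. Rel was last in both libraries, at 12.0 and 9.75 TPM. The place of Nfkb1 depended on the length used. Its listed length was 12061 bases, and how that length was derived was not checked. Its longest principal transcript in GENCODE M21 has 4117 bases. Nfkb1 thus stood at 59.1 TPM untreated by the listed length and at 173 TPM, the highest of the 10, by the principal transcript length. Its lead over Rela was then 1.03-fold, with a counting interval of 0.978 to 1.09 that held 1. The principal transcript lengths were brought in after the data were seen.

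The make-up of the subunit messages differed between the libraries under both lengths. Nfkb2 made up 33.4% of the summed subunit TPM untreated and 42.1% with PKCi by listed lengths, and 25.8% and 36.4% by principal transcript lengths. Nfkb1 went from 14.8% to 7.10% by listed lengths and from 32.0% to 17.1% by principal transcript lengths. Rela held 41.9% and 42.2%, or 31.0% and 34.8%, and Relb 6.91% and 7.42%, or 8.98% and 10.8%. Rel made up 3.01% and 1.18% by listed lengths. Within the IkB messages Nfkbia took 39.1% untreated and 51.4% with PKCi by listed lengths. Nfkbib went from 15.6% to 8.45% and Nfkbiz from 8.16% to 4.52%, while Bcl3 (22.7% and 21.9%) and Nfkbie (14.4% and 13.8%) held similar shares.

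**Figure D4:**
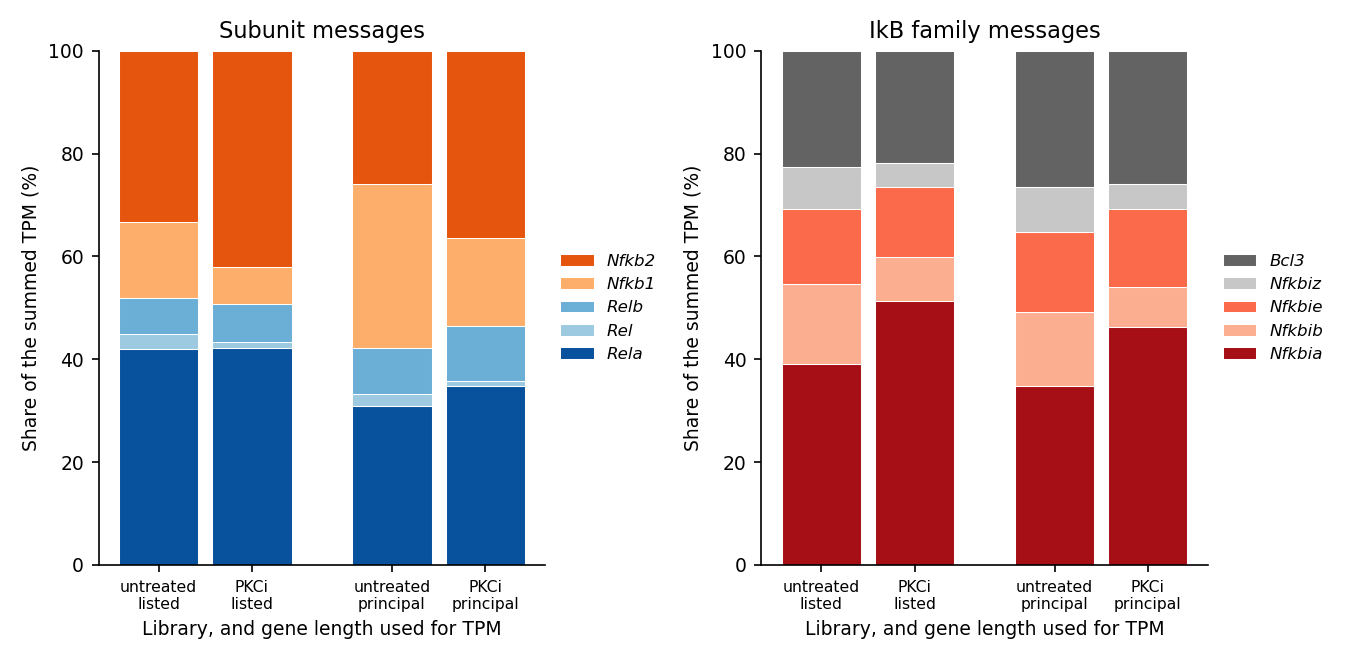
Share of each gene in the summed TPM (percent) of the 5 subunits (left) and the 5 IkB genes (right) in each library, with TPM from the listed gene lengths and from the principal transcript lengths. The Nfkb2 and Nfkbia parts are larger and the Nfkb1 part smaller in the PKCi library with either length.

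Messages of the classical IkB genes and of the subunits can be set against each other on the same scale. The precursor genes Nfkb1 and Nfkb2 were counted only as subunits here. The 3 classical IkB genes summed to 199 TPM and the 5 subunits to 400 TPM in the untreated library, and to 503 and 828 TPM in the PKCi library. This gave 0.496 IkB messages per subunit message untreated and 0.607 with PKCi, or 0.395 and 0.534 with principal transcript lengths. For Nfkbia against Rela alone the ratio of TPM was 0.669 untreated and 1.00 with PKCi. In counts, the 5 subunits together were 1.72-fold higher in the PKCi library (8943 and 15329 counts, interval 1.67 to 1.76) and the 5 IkB genes 2.18-fold higher (3387 and 7389 counts, interval 2.10 to 2.28). Messages are not proteins, and in cultured cells measured in bulk, fewer cells with a message and less message per cell cannot be told apart.

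The genes of the pathway around the members are given by list, and their counts can be read against the 6.53% of all measured genes that were at least 2-fold higher and the 5.13% that were lower. These lists too were chosen with earlier results of these data known. Of 11 measured IKK and related kinase genes, 3 were at least 2-fold higher and none lower, with a median log2 ratio of 0.19 and a range from −0.73 to 1.89. Ikbkg, which encodes the regulatory IKK subunit NEMO, was at 22.1 and 50.2 CPM (2.27-fold higher, 95% interval 2.0 to 2.58). Chuk, which encodes the catalytic subunit IKK-alpha, went the other way, at 180 and 108 CPM (1.66-fold lower, interval 1.56 to 1.76). Ikbkb, which encodes the catalytic subunit IKK-beta, was at 43.6 and 64.3 CPM. Ikbke, an IKK-related kinase gene, was 4.0-fold higher (interval 3.35 to 4.81), and Map3k8, which encodes the kinase TPL2 that p105 holds inactive, had 41 and 99 counts (2.42-fold, interval 1.66 to 3.57). Map3k14, which encodes NIK, the kinase of the noncanonical pathway, was at 16.5 and 19.7 CPM.

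Of 19 measured genes of receptor adaptors and of the CARD, BCL10 and MALT1 complex, 1 was at least 2-fold higher, a share near that of all genes, none was lower, and the median log2 ratio was 0.34. The one was Traf1, an adaptor of TNF receptors and a known NF-kB target, at 19.6 and 251 CPM. Bcl10 was at 160 and 298 CPM (1.86-fold higher, interval 1.77 to 1.95), and its partners Malt1 (19.6 and 18.9 CPM) and Card10 (25.6 and 33.7 CPM), named after their values were seen, were closer to their untreated levels. Traf5 and Tradd were 1.67-fold and 1.52-fold higher. Among 13 listed receptor genes 10 were measured, with 1 at least 2-fold higher (Tlr9, with 3 and 23 counts), none lower by 2-fold on the log2 scale and a median of 0.25. Tlr9 reached 1 CPM only in the PKCi library. Il1rap, the accessory chain of the interleukin 1 receptor, was at 7.33 and 3.55 CPM (2.07-fold lower as a plain ratio), and the lipopolysaccharide receptor gene Tlr4 at 31.1 and 51.8 CPM. Of 10 listed ligand genes 1 was measured, Il18 at 0.808 and 1.31 CPM. Tnf and Il1b, the best known inducers of the pathway, had 0 counts in both libraries, which allows up to 0.187 CPM.

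Brakes outside the IkB family were mixed. Of 11 measured ubiquitin editors and other brakes, 2 were at least 2-fold higher and none lower, with a median log2 ratio of 0.21. Tnfaip3, which encodes the feedback ubiquitin editor A20, was at 23.6 and 55.3 CPM (2.35-fold higher, interval 2.08 to 2.66), and its partner Tnip1 at 75.8 and 181 CPM (2.38-fold, interval 2.23 to 2.55). Zc3h12a, which encodes an RNase that cuts inflammatory messages, and Tnip3 were 1.81-fold and 1.68-fold higher. Cyld, a deubiquitinase gene named after its value was seen, was 1.64-fold lower (interval 1.53 to 1.76). For the ligase that marks IkB proteins for degradation and for precursor processing, 0 of 8 genes were past 2-fold in either direction, with a median of −0.08. Rnf123, which encodes a ligase known to process p105, was 1.61-fold higher (29.5 and 47.4 CPM). Of 10 coregulator genes none passed 2-fold, with a median of 0.38. The acetyltransferase genes Ep300 and Crebbp were 1.92-fold and 1.61-fold higher.

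Known target genes outside the family were the list with the widest spread. Of its 33 listed genes 24 were measured. Among these 24, 12 passed 2-fold upward and 1 downward, 17 had a log2 ratio above 0, and the median was 0.90. The higher genes Cxcl2, Il6 (0 and 36 counts) and Saa3 (5 and 39 counts) reached 1 CPM only in the PKCi library. The lower genes Cxcl10 and Ccl20 reached it only in the untreated library, so the filter admitted these genes through 1 library. This list shares Birc3, Traf1, Tnfaip3 and Nfkbid with lists above. The 4 with the greatest difference were Csf3, Cxcl2, Ier3 and Traf1, with log2 ratios of 5.12, 3.81, 3.66 and 3.61, all beyond the 1.62 of Nfkbia. Csf3 (1.49 and 85.7 CPM) and Cxcl2 (0.311 and 17.4 CPM) were low in the untreated library. With 5 and 279 counts, the plain ratio of Cxcl2 was 55.9 with an interval of 23.7 to 173. The one at least 2-fold lower on the log2 scale was Gadd45b, a stress-response gene named after its value was seen (19.0 and 8.77 CPM, 2.16-fold lower, interval 1.76 to 2.66). In all, 7 of the 24 had a log2 ratio below 0. Among these, Csf1 was at 260 and 142 CPM and Cxcl5 at 176 and 103 CPM. The low genes Cxcl10 (18 and 4 counts) and Ccl20 (31 and 13 counts) were 4.49-fold and 2.38-fold lower as plain ratios. The 6 genes listed as targets of RelB and p52 in lymphoid organs, such as the chemokine genes Cxcl13 and Ccl19, had 0 counts in both libraries.

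**Figure D5:**
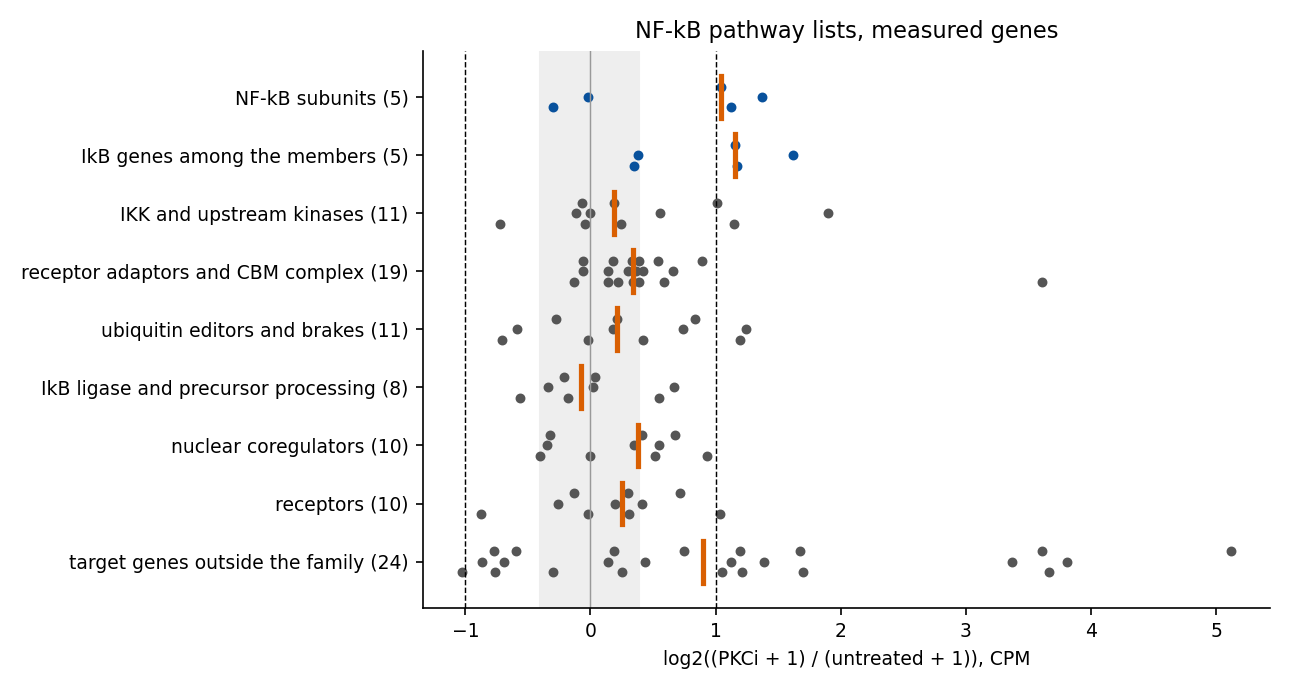
Log2 ratio of each measured gene (points) by list, with the median of the list (orange bar), the number of measured genes in brackets, dashed lines at 2-fold and the quartile range of all 12273 genes shaded. The medians of the 2 member lists are 1.04 (subunits) and 1.15 (IkB genes), and that of the target list is 0.90.

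Other cell types and overlapping genes were looked at beside these values. Of 22 leukocyte markers, 15 had 0 counts in both libraries, Ptprc, Cd3e and Spi1 among them, and the sums were 11.9 and 8.34 CPM. The 2 that were measured went opposite ways, Lyz2 with 133 and 50 counts (8.27 and 3.11 CPM) and Cd68 with 38 and 57 counts. Among 13 lung and epithelial markers the keratin genes Krt8 (933 and 1182 CPM) and Krt18 (643 and 765 CPM) were high, Cdh1 was at 2.92 and 3.36 CPM, and Nkx2-1, Sftpc, Sftpb and Scgb1a1 had 0 counts in both libraries. Of the 7 that were measured, 6 had a log2 ratio above 0. Krt7 went the other way, at 43.5 and 29.8 CPM (1.46-fold lower, interval 1.30 to 1.64). The 13 markers summed to 1705 and 2082 CPM. One protocol in the labels speaks of retinas, and 8 of 10 retina markers had 0 counts in both libraries, with sums of 0.186 and 0.0622 CPM. Of 6 endothelial markers 1 had 0 counts in both libraries, and the sums were 0.621 and 1.24 CPM. The 7 fibroblast markers summed to 101 and 38.3 CPM. That lower sum came mostly from Pdgfrb (88.4 and 24.4 CPM), and Col1a1 was also lower (143 and 70 counts). The other 3 of the 5 measured markers had a log2 ratio above 0: Pdgfra with 43 and 97 counts, Dcn with 1 and 17 and Col3a1 with 14 and 38. Dcn and Col3a1 reached 1 CPM only in the PKCi library, so the median of 0.85 depends on that filter. Col1a2 (5 and 0 counts) and Lum (0 and 1) were below it. The part of these markers in the results was not tested. Nfkb2 overlaps Psd on the opposite strand (308 and 560 counts), Nfkbib overlaps Sirt2 (870 and 1088 counts) and Bcl3 overlaps the antisense gene Gm16174 (5 and 28 counts). The strand setting of the counting is not given in the sources used here, so reads from such overlaps cannot be told apart.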

How the data were processed

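The authors deposited 1 table of whole-number counts per gene with 1 column per library, although its name speaks of FPKM, and with symbols, positions and lengths. HISAT2 2.0.5 and the mouse genome as GRCm38 or mm10 are named in the submitters' processing notes. How reads were assigned to genes, with what strand setting and which annotation, is not given in the sources used here. Every per-sample column was assigned (0 left over). The labels name both a stranded and an unstranded kit.

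From the deposited counts CPM was computed as the count per 1000000 of the library total, genes that reached 1 CPM in either library were kept, and the log2 ratio used a pseudocount of 1 CPM (Python 3.11.15, pandas 2.3.3, scipy 1.17.1). TPM used the listed lengths. The floor for undetected genes was 3 counts. The alternatives were other scalings, pseudocounts, filters, folds and gene lengths, and TMM factors came from edgeR 4.0.16. The procedure was run on simulated counts with planted differences and counting error alone, so that run says nothing about the spread between cultures. No test across conditions was possible with 1 library per group.

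The members and lists were chosen with earlier results of these data known. Named genes are all members, the 4 list genes with the greatest absolute log2 ratio past 1.5-fold, and Chuk, Ikbkb, Ikbkg, Map3k14 and Tnfaip3. Outside this rule, Nfkbid, Malt1, Card10, Cyld, Gadd45b, Csf1, Cxcl5, Cxcl10, Ccl20, Il6, Saa3, Il18, Tnf, Il1b, Cxcl13, Ccl19, the marker genes, NFAT genes, overlapping genes and Tomm40 were named after their values were seen. Promoter windows are from RefSeq (GRCm38.p6), and overlaps and principal transcripts from GENCODE M21, which gives 9 of the 10 members the deposited coordinates.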

Additional observations from a re-analysis of the deposited data

How the results depend on the processing

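Rela, Relb, Nfkb2, Nfkbia, Nfkbie and Bcl3 were at least 2-fold higher under TMM, median-of-ratios and TPM scaling, a total without mitochondrially encoded genes, pseudocounts of 0.5 and 5 CPM, no filter and a filter of 5 CPM, and the count of members was also 6 at 1.5-fold. Over these settings Rela came closest to 2-fold, with log2 ratios from 1.02 to 1.05, Nfkbia ranged from 1.55 to 1.63, and Rel from −0.31 to −0.26. No scaling moved the median of all genes by over 0.1. The number of genes at least 2-fold higher and lower was 802 and 630, and became 1398 and 985 with TPM (where the filter of 1 applied to TPM and kept 14174 genes in place of 12273), 449 and 324 with a pseudocount of 5 CPM, and 2058 and 2048 at 1.5-fold. Shares within the family depend on the gene length, above all for Nfkb1, as given with them. No paired analysis was possible because each group had 1 library. The depth bounds counting error only: the spread between cultures is unknown, so differences such as the 1.24-fold of Rel have an interval from counting but none from replication.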

Other observations

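The deposited table marks 10 genes as having a Rel homology domain: the 5 NF-kB subunits and 5 NFAT genes, which encode calcium- or tonicity-regulated transcription factors. Nfat5, the tonicity-responsive member, was at 171 and 312 CPM (1.82-fold higher, 95% interval 1.74 to 1.91), short of 2-fold. Nfatc3 (134 and 131 CPM) and Nfatc1 (30.6 and 37.3 CPM) were closer to their untreated levels, Nfatc2 had 63 and 37 counts (1.70-fold lower, interval 1.12 to 2.63), and Nfatc4 had 0 in both libraries. Values are given untreated first, and these genes were looked up after the data were seen.

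Relb and Bcl3 lie 179023 bases apart on chromosome 7 and were 2.21-fold and 2.28-fold higher. Of the 13 genes listed between them 6 were measured, none of these was at least 2-fold higher, and Tomm40, a mitochondrial import gene, was 2.25-fold lower (183 and 81.5 CPM).

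The kB consensus was present in a RefSeq promoter window of 549 of 8980 measured genes outside the family (6.11%), of 64 of the 586 that were at least 2-fold higher (10.9%) and of 22 of the 460 that were at least 2-fold lower (4.78%). These are shares of genes with those letters in at least 1 window, and differences between them were not tested.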
